A study of Mus musculus with 4 samples.

Results

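Accessible chromatin inside the bodies of protein-coding genes was examined in mpkCCD clone 11 cells, a mouse line that keeps many features of the cortical collecting duct. ATAC-seq marks DNA that a transposase can reach, and the lists used here give the positions at which the cut sites pile up into peaks. Peaks of the 4 libraries that overlapped by at least 1 bp were merged into 560228 regions, of which 88231 held a peak in every library. A region was kept when it had a peak in all 4 libraries, was narrower than 3000 bp after merging, overlapped the body of a protein-coding gene and touched no window of 1 kb on each side of either end of any such gene. This left 32257 regions, 36.7% of the 87922 shared regions under the width limit, and the others were 14815 at gene ends and 40850 outside protein-coding genes. The regions were thus chosen by presence in all libraries, width and position, and none of these is treated below as a result.

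All libraries came from cells of passages 8 to 10 that had been expanded in medium with dexamethasone, insulin, triiodothyronine and epidermal growth factor, had reached confluence on permeable supports and had then been moved to medium free of serum and hormones. There were 2 libraries from cells given the vehicle and 2 from cells given 0.1 nM dDAVP, a vasopressin analog that acts on the V2 receptor, each taken at 30 minutes and made from 50000 cells. Separate cultures are not named in the labels, so p-values measure only the spread between these samples, which may be technical. A wider peak in a pooled library can come from more cells or from more cutting in each cell, and these cannot be told apart. The deposited lists held 205771 to 393956 peaks and no read counts, so the depth behind each peak is unknown. Of the principal cell markers checked, 12 of 16 had a shared region at a gene end and 7 held a shared region inside, and the water channel Aqp4 and the V2 receptor Avpr2 had neither. For the markers of stroma, endothelium and leukocytes, 6 of 12 had neither, among them Ptprc, Cd3e and Csf1r. Of the 8 proximal tubule markers, 3 had a shared gene-end region and 5 a region inside, and of the 9 intercalated cell markers 5 and 3 did. Of all protein-coding genes 64.2% had a shared gene-end region and 40.5% held a region inside.

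Open chromatin within gene bodies can mark enhancers, which regulate a gene at a distance, or promoters of transcripts that start downstream of the outermost annotated start. In the collecting duct vasopressin acts through cAMP and protein kinase A, while aldosterone acts through the mineralocorticoid receptor, and both adjust water and sodium transport in principal cells. Transcription factors such as the Pax, Gata and grainyhead families help to keep the epithelial and nephric identity of these cells.

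Annotated starts give the part of the regions for which sequence can be shown. The windows below hold the 250 bases before an annotated start that lies inside the gene and inside a shared region, 5′ to 3′ along the gene, taken from RefSeq (GRCm38.p6, called mm10 in the processing notes). They were chosen after their values were seen, to show starts of sodium and cAMP signalling, junction and adhesion genes, and where a region held several starts the most upstream was used. Whether a window overlaps an exon of a longer transcript is not given in the sources used here. Capitals mark matches on either strand to short motifs, none of which contains another. The cAMP response element was searched as TGACGTCA, and the AP-1 site was searched as TGANTCA. The CCAAT box was searched by the letters of its name. The GC box was searched as GGGCGG, while the ETS site was searched as CCGGAAG. The E-box was searched as CACGTG, and the TATA box was searched as TATAAA. These matches describe the letters and do not show binding.
Sgk1: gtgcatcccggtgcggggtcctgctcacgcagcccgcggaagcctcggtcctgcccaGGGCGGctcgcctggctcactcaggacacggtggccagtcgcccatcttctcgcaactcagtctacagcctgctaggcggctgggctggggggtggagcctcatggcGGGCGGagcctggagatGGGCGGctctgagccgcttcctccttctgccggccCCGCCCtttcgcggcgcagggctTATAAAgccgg
Nr3c2: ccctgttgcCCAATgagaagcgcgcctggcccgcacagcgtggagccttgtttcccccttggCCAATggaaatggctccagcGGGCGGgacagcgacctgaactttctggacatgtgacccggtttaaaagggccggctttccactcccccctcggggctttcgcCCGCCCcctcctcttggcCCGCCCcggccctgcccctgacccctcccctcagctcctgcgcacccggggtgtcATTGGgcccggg
Gnas: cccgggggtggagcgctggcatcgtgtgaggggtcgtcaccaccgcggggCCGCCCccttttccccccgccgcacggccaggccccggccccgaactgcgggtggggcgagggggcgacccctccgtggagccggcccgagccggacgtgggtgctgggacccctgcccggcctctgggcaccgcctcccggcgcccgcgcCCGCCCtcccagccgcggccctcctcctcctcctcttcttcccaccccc
Prkar1a: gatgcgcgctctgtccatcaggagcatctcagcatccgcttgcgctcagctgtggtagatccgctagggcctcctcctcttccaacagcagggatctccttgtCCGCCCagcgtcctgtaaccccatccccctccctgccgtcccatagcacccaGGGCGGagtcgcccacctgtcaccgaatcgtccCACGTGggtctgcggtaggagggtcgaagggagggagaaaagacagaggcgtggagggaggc
Tjp1: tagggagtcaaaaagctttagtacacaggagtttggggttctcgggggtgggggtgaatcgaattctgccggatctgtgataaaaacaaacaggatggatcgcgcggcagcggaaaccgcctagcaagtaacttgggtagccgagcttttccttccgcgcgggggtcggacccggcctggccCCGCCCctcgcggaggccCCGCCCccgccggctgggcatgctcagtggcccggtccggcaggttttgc
Lamb3: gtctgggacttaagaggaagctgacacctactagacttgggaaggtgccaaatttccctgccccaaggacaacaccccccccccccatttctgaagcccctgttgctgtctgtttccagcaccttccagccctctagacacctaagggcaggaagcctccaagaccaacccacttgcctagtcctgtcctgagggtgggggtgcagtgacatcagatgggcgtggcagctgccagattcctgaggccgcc

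The Sgk1 window (chr10:21994416-21994665, plus strand), from the aldosterone-induced kinase that protects the epithelial sodium channel, was 70.4% GC with 22 CpG pairs and held 4 GC boxes and a TATA box match. The Nr3c2 window (chr8:76902080-76902329, plus strand), from the mineralocorticoid receptor, was 68.4% GC and held 3 GC boxes and 3 CCAAT boxes. Gnas encodes the stimulatory G protein subunit that couples the V2 receptor to adenylyl cyclase, and its window (chr2:174329756-174330005, plus strand) was 80.0% GC with 29 CpG pairs. Prkar1a encodes a regulatory subunit of protein kinase A, and its window (chr11:109650292-109650541, plus strand) held 2 GC boxes and an E-box. The Tjp1 window (chr7:65371245-65371494, minus strand), from the tight junction scaffold ZO-1, held 22 CpG pairs and 2 GC boxes. The Lamb3 window (chr1:193301744-193301993, plus strand), from a laminin chain of the basement membrane, differed from these in that it held 2 CpG pairs and none of the letters searched.

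The sodium bicarbonate cotransporter gene Slc4a4 has annotated internal starts of both kinds, and they are shown because they contrast within a gene. The start after the window chr5:88887010-88887259 (plus strand) lay in a shared region, and the start after chr5:89027716-89027965 (plus strand) lay in no peak of any library.
Slc4a4 start in a shared region: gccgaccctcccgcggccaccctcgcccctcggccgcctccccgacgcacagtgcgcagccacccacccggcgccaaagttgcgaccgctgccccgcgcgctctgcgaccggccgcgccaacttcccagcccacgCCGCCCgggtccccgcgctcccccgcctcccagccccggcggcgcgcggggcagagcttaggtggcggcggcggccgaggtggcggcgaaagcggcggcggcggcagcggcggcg
Slc4a4 start in no region: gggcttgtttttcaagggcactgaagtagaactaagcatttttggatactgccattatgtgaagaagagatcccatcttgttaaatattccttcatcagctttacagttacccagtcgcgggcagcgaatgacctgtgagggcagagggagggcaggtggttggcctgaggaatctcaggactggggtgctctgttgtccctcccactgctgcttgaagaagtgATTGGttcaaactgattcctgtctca
The accessible window was 82.0% GC with 44 CpG pairs and the other was 48.8% GC with 3. The start in no region was picked for a GC content near the median of all internal starts in no region. Its composition was therefore set by that choice and is not a result.

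Most accessible regions in gene bodies were not shared by all libraries. Of 240881 merged regions inside genes and off gene ends, 132284 had a peak in 1 library, 48610 in 2, 27627 in 3 and 32360 in all 4. Their median merged width was 155 bp in 1 library and 467 bp in 3, against 725 bp (quartiles 482 and 1053 bp) for the shared regions kept. The width limit left out 103 regions of 3000 to 5671 bp. Just inside it were regions in Syne2 (2998 bp), Nr3c1 (2997 bp) and Fbrsl1 (2981 bp), and just outside it regions in 5031439G07Rik (3000 bp), Ptprt (3003 bp) and Gng12 (3011 bp).

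The regions were spread over 8865 of 21887 protein-coding genes (40.5%). Of these hosts 3527 held 1 region, 718 held 10 or more, 163 held 20 or more and 13 held 50 or more, and the 100 genes with the most held 11.0% of all regions. The median host held 2.00 regions, and 340 regions lay in more than 1 gene body and were counted for each. Neighbouring regions on a chromosome were 11.5 kb apart at the median, with 29.4% of neighbours within 5 kb of each other. In all the regions covered 2.67% of the 989 Mb of gene interior, where interior means the gene body outside every gene-end window.

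Counts per gene went with gene length. The share of genes with a region was 15.1% for interiors under 10 kb, 56.6% for 20 to 50 kb, 82.1% for 100 to 200 kb and 98.7% over 500 kb. Across the 19258 genes with any interior, Pearson's r between log2(count + 1) and log2 interior was 0.588 and Spearman's rho of the untransformed values was 0.593. These describe genes that share libraries and chromosomes, and genes are not independent replicates. Density did not rise with length in the same way. It was 4.04 to 4.51 regions per 100 kb of interior in the 4 length classes up to 100 kb, 3.65 at 100 to 200 kb, 2.73 at 200 to 500 kb and 1.38 over 500 kb. In each of these 7 length classes a larger share of hosts than of other genes had a shared region at a gene end, for example 77.4% against 67.0% at 50 to 100 kb. In the class over 500 kb 222 of 225 genes were hosts, so there the other genes are too few to compare.

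**Figure D1:**
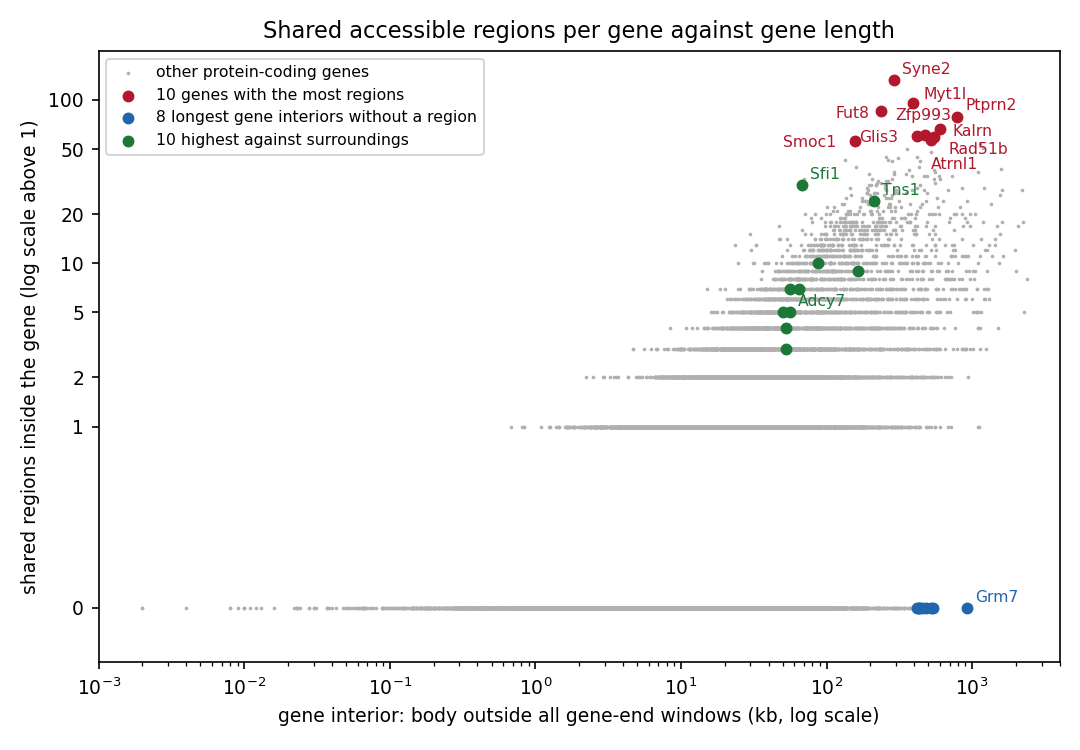
Each point is a protein-coding gene, with its interior length in kb on a log axis and its number of shared regions on an axis that is linear from 0 to 1 and logarithmic above. Counts rise with length, from at most 4 in genes with under 10 kb of interior to 132 in Syne2, while Grm7 has 920 kb of interior and no region.

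The gene with the most regions was Syne2, which encodes the giant nuclear envelope protein nesprin-2. It held 132 in 289 kb of interior, or 45.6 per 100 kb, and its densest 50 kb held 30. At the mean rate of its chromosome 25.0 regions would be expected, a ratio of 5.28, and at the rate of shared regions outside genes within 1 Mb on each side the ratio was 4.74. The median covered length of its regions, meaning the bp under peaks within a region, was 750 bp in vehicle replicate 1, 544 bp in vehicle replicate 2, 628 bp in dDAVP replicate 1 and 588 bp in dDAVP replicate 2. Where a pair of values is given for a treatment, replicate 1 comes first. Its region of largest median covered length (chr12:75886930-75889407) was covered over 2364, 2477, 1916 and 2421 bp in the same library order, so it was narrowest in dDAVP replicate 1 and the other 3 libraries lay close together.

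Chromosome 12 held 5 more of the 10 leading genes. The neural zinc finger gene Myt1l held 96 regions in 394 kb, the core fucosyltransferase gene Fut8 held 85 in 237 kb and Ptprn2, a phosphatase-like protein of secretory granules, held 79 in 790 kb. Rad51b, a recombination gene, held 59 in 549 kb, and Smoc1, a secreted matrix protein, held 56 in 158 kb. Against their surroundings these differed widely, with ratios of 3.70 for Myt1l, 2.86 for Smoc1, 2.26 for Fut8, 1.23 for Ptprn2 and 0.929 for Rad51b, so Rad51b did not exceed the rate around it. The remaining leading genes were the guanine nucleotide exchange factor gene Kalrn (66), the transcription factor gene Glis3 (60), Atrnl1 (57) and the zinc finger gene Zfp993 (61). The Fut8 region of largest median covered length (chr12:77389324-77391973) was covered over 2638 and 2618 bp with vehicle and over 2521 and 2609 bp with dDAVP. The Myt1l region of largest median covered length (chr12:29766385-29768860) was covered over 2060 and 2458 bp with vehicle and 1851 and 1833 bp with dDAVP, and there both dDAVP values lay below both vehicle values. After quantile normalization over all shared regions, 13.3% of them showed this order and 16.7% the opposite order. Here and below the order of a named region is read from bp before that normalization, which can change it. Such shares are therefore only a rough background for a named region.

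Among genes with at least 50 kb of interior the highest densities were in Gm40447 (46.8 per 100 kb), Syne2, Sfi1 (44.3), Fut8 (35.9), Smoc1 (35.5) and the sodium/calcium exchanger gene Slc8a3 (32.1). Zfp982 (28.2) and Sp140 (26.1) followed. Against the rate of the own chromosome the leading genes were Zfp982 (ratio 17.8), Rex2 (15.2), Zfp984 (14.6), Sp140 (12.7), Sfi1 (12.3), Synpo (11.7), Zfp978 (11.1) and Gm38510 (9.78). Zfp982, Zfp984, Zfp978, Rex2 and Zfp993 lie close together on chromosome 4, and so do Sp140 and Gm38510 on chromosome 1. Where genes have near-identical copies, the placing of short reads is uncertain. Whether this holds for these genes or for Sfi1 was not tested. The counts of all these genes are to be read with that limit. Sp140 shared 5 of its 14 regions with Sp110, and Gm38510 shared 10 of its 29 with C130026I21Rik. For the chromosome 4 genes the ratio to the surroundings was 0.797 to 2.15, so shared regions outside genes were frequent next to them too.

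The rate of regions depended strongly on the chromosome. It was 96.4 per Mb of gene interior on chromosome 19 and 86.4 on chromosome 12, between 50 and 55 on chromosomes 3, 10, 15 and 16, and 14.3 on chromosome 7, 9.32 on 18, 4.25 on X and 1.53 on Y. Chromosomes 12 and 19 held 18.7% of the regions on 6.76% of the gene interior. Shared regions outside protein-coding genes were also most frequent on chromosomes 19 and 12 and rare on X, with 79.4 per Mb on chromosome 19, 65.0 on 12 and 7.72 on X. Over the 21 chromosomes r between the inside and outside rates was 0.993, a description of chromosomes that share the same 4 libraries. Taken over all chromosomes the rate was 32.6 per Mb inside genes and 25.4 per Mb outside, a ratio of 1.29. Over the autosomes the median ratio was 1.20. The rate was higher inside on 18 of 21 chromosomes, and lower on chromosome 6 (ratio 0.962), 13 (0.883) and X (0.551). The 18 include Y, which rested on 3 regions inside genes.

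**Figure D2:**
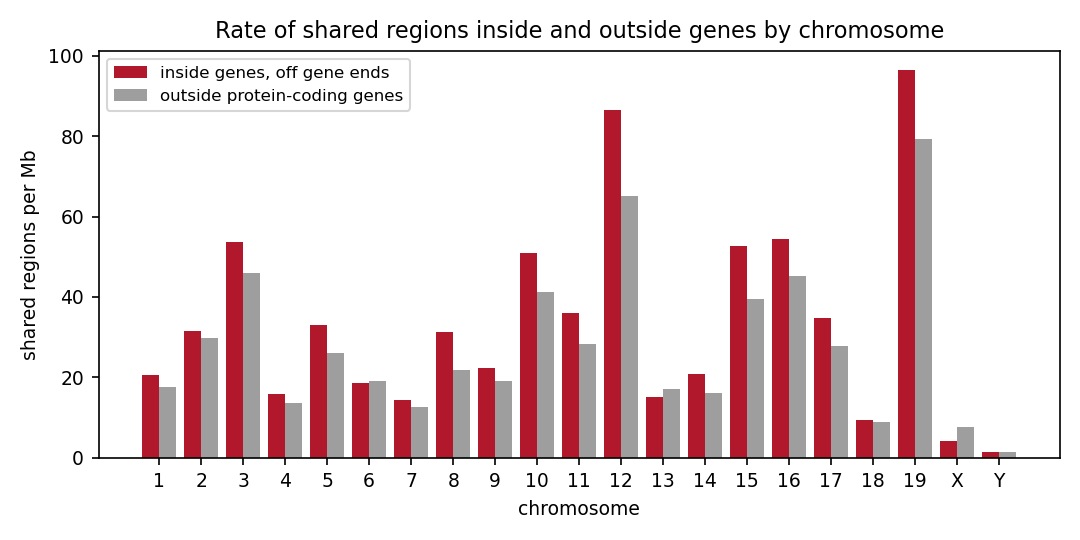
Bars give shared regions per Mb for each chromosome, inside genes and off gene ends (red) and outside protein-coding genes (grey). Chromosomes 19 and 12 stand highest in both classes, and the red bar is lower than the grey bar on 6, 13 and X.

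The comparison with surroundings, added after seeing the chromosome differences, could be made for 4050 genes with at least 50 kb of interior and at least 500 kb and 10 shared regions outside genes within 1 Mb. Their median ratio was 0.792, 39.8% exceeded 1, and 159 (3.93%) reached 3. After Sfi1 (20.9) the highest were the adenylyl cyclase gene Adcy7 (9.75), the focal adhesion gene Tns1 (9.32), Styk1 (8.90), Rhpn2 (8.30), Gpld1 (7.83), the actin-associated podocyte gene Synpo (7.02), the Rab GTPase-activating gene Tbc1d4 (6.76), Bfsp1 (6.67) and the acid ceramidase gene Asah1 (6.65). Tns1 rested on 24 regions, Bfsp1 on 10, Tbc1d4 on 9 and Asah1 on 3, so the ratios differ in how many regions support them. Adcy7 held 5 regions with a median covered length of 921 bp in vehicle replicate 1, 395 bp in vehicle replicate 2, 272 bp in dDAVP replicate 1 and 139 bp in dDAVP replicate 2. At the other end, 982 of the 4733 genes with at least 50 kb of interior (20.7%) held no shared region. The longest were the glutamate receptor gene Grm7 (920 kb), Dach2 (537 kb), Skint5 (520 kb), Skint6 (480 kb), the cadherin gene Cdh4 (455 kb), the potassium channel gene Kcnb2 (431 kb), Hmcn1 (429 kb) and Hs3st4 (415 kb). At the rate of its chromosome 17.0 regions would be expected in Grm7. Outside genes around Grm7 and Skint5 shared regions were sparse too, at 0.747 and 0.279 per 100 kb.

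Listed genes were compared with all genes by the number of regions against the number expected from the interior at the rate of the own chromosome. Of all genes with interior 33.8% lay above expectation. The share was 18 of 30 (60.0%) for genes of the principal cell and 12 of 18 (66.7%) for corticosteroid response. It was 33 of 50 for epithelial and nephric transcription factors and cofactors, and also for actin and matrix adhesion. It was 11 of 20 (55.0%) for the intercalated cell and 25 of 47 (53.2%) for cAMP and protein kinase A. Lower shares were 22 of 46 for junctions, polarity and epithelial factors and 22 of 48 for growth factor and TGF-beta signalling. Immediate-early genes gave 10 of 25, and genes of podocytes, endothelium, stroma and leukocytes gave 10 of 29. The proximal tubule gave 6 of 24, and long genes used mainly in nerve or muscle gave 3 of 50. These counts describe the lists, which were not tested against other genes. The measure still depends on length, because any region puts a gene above a small expected number. Over all genes the median ratio was 0 up to 20 kb of interior, 0.905 at 50 to 100 kb and 0.369 over 500 kb. Median interior was 19.3 kb over all genes with interior and 28.8 kb for the principal cell. It was 50.2 kb for corticosteroid response, 75.7 kb for the transcription factors and 119 kb for actin and adhesion. Whether a list exceeds other genes of its length was not tested.

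**Figure D3:**
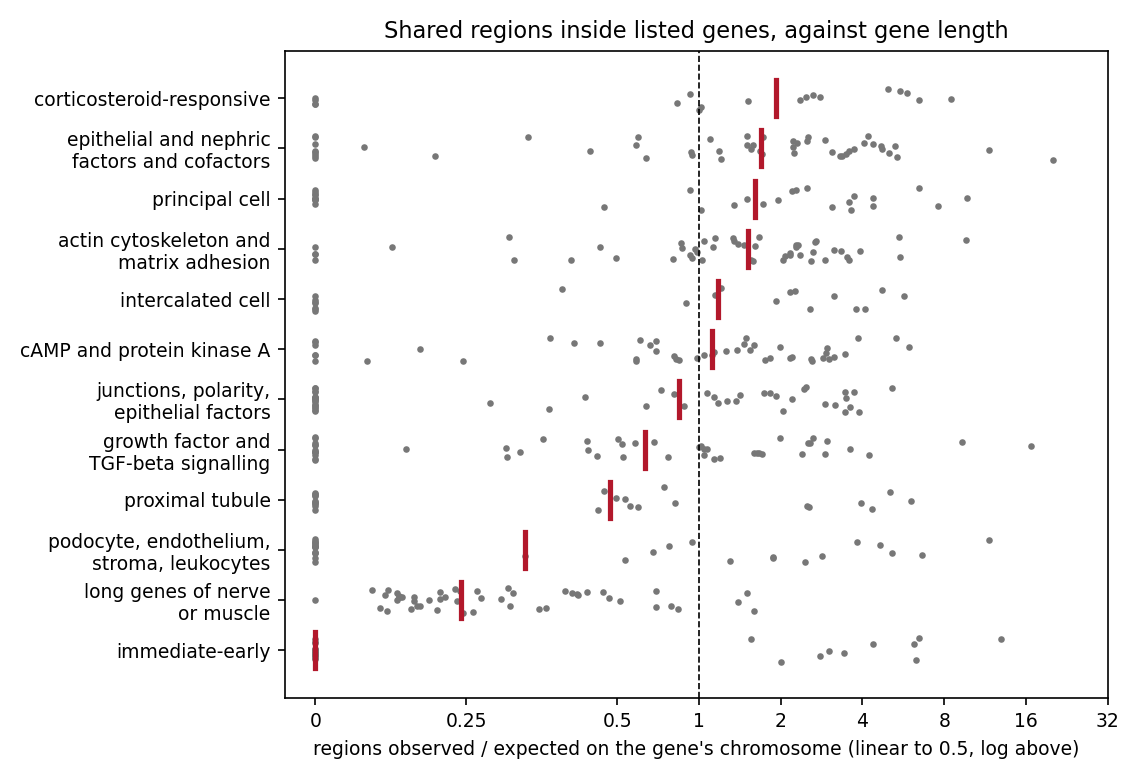
Each point is a listed gene, placed by its number of shared regions over the number expected on its chromosome (linear to 0.5, logarithmic above), and the red bar is the median of the list. Medians run from 1.93 for corticosteroid-responsive genes to 0.242 for long genes of nerve or muscle, and the immediate-early median is 0. Aqp3, with a ratio of 36.5, lies beyond the end of the axis.

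Principal cell genes held 102 regions in 20 of 30 genes, with a median ratio to the chromosome of 1.61. The sialyltransferase gene St6gal1 led with 16, followed by the nephric transcription factor gene Pax2 with 13 and Nr3c2 with 10. Nr3c2 has 345 kb of interior, and its ratio was 0.925 to the chromosome and 2.55 to the surroundings. The ubiquitin ligase gene Nedd4l, whose product removes the epithelial sodium channel, held 7, the transcription factor gene Pax8 held 6 and the transcription factor gene Tfcp2l1 held 5. Scnn1a, which encodes the alpha subunit of that channel, held 4 in 28.7 kb, against 0.529 expected. The region of largest median covered length (chr6:125321010-125322110) was covered over 1045 and 807 bp with vehicle and 1049 and 845 bp with dDAVP. The treatments overlapped there, and replicate 1 was wider than replicate 2 within each. The region of largest merged width (chr6:125322651-125323942) was covered over 608 and 734 bp with vehicle and 1050 and 1122 bp with dDAVP, where both dDAVP values were the higher. After quantile normalization 16.7% of all shared regions showed that order, and 13.3% the opposite order.

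The basolateral water channel gene Aqp3 held 2 regions in only 3.46 kb of interior. The first (chr4:41095834-41096708) was covered over 629 and 712 bp with vehicle and 452 and 702 bp with dDAVP, and the second (chr4:41093911-41094848) over 421 and 373 bp with vehicle and 451 and 734 bp with dDAVP. The treatments overlapped in the first, and in the second both dDAVP values in bp were the higher. Counted on quantile normalized values, 16.7% of all shared regions had both dDAVP values the higher. The vasopressin-regulated water channel gene Aqp2 held none in 3.49 kb of interior, and neither did Avpr2 (0.587 kb), the cortisol-inactivating enzyme gene Hsd11b2 (3.24 kb) or the transcription factor gene Elf3 (2.90 kb). Scnn1g held none in 32.1 kb. Ptger4, a receptor for prostaglandin E2, held 3 regions in 8.79 kb, of which the narrowest (chr15:5236649-5236785) was covered over 120 to 131 bp in every library.

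Intercalated cell genes held 39 regions in 13 of 20 genes, with a median ratio of 1.18. The proton pump subunit gene Atp6v0a4 held 6 (1 of them shared with Tmem213), the anion exchanger gene Slc26a4 held 4 and Tmem117 held 10 in 465 kb, while the receptor gene Kit held none in 79.7 kb. Proximal tubule genes held 52 regions in 14 of 24 genes with a median ratio of 0.488. Their leaders were the dicarboxylate transporter gene Slc13a3 (9), the transcription factor gene Hnf4a (8) and Slc4a4 (7), and Slc13a1 held none in 77.8 kb. Genes of podocytes, endothelium, stroma and leukocytes held 56 regions in 15 of 30 genes with a median ratio of 0.347. Over all genes the median ratio was 0, so none of these list medians lies below it. Of this last list 34.5% lay above expectation, against 33.8% of all genes with interior. Magi2 held 17 of the 56 regions in 1483 kb and Flt1 held 7 in 163 kb. Synpo held 7 in 64.2 kb, while the leukocyte phosphatase gene Ptprc and the endothelial gene Emcn held none in 111 and 88.0 kb.

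Genes that make, anchor, answer or end the cAMP signal held 257 regions in 41 of 47 genes, and 25 of 47 lay above expectation (median ratio 1.12). For the cyclases that make cAMP, Adcy9 held 18, Adcy3 and Adcy5 held 12 each, Adcy7 held 5, and Adcy6 held 1 in 18.3 kb. The regulatory subunit genes of protein kinase A gave 23 in Prkar1b, 14 in Prkar2b, 1 in Prkar1a and 0 in Prkar2a, and the catalytic subunit genes 6 in Prkacb and 2 in Prkaca. Prkar1b was dense for its size, with 23 in 131 kb against 4.32 expected on its chromosome, a ratio of 5.33 that was 2.37 against its surroundings. Its widest region (chr5:139052036-139053945) was covered over 1901 and 934 bp with vehicle and over 1114 and 1115 bp with dDAVP, so both dDAVP values lay between the vehicle values. Among anchoring proteins, which tether the kinase, Akap6 held 23 in 455 kb, Akap7 held 13 and Akap12 held 12. Phosphodiesterase genes, which end the signal, gave 19 in Pde7b, 13 in Pde4d and 10 in Pde7a but none in Pde3b (121 kb), and the kinase inhibitor gene Pkia also held none (76.8 kb).

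Corticosteroid-responsive genes held 89 regions in 14 of 20 genes at 6.19 per 100 kb, against 3.26 over all genes. The figure over all genes is lowered by the longest genes, and the length classes up to 100 kb ran at 4.04 to 4.51. Of the other lists only the immediate-early genes were denser, at 9.20. Whether these lists exceed genes of their length was not tested. Tns1 held 24, Cnksr3, a scaffold that promotes sodium channel activity, held 13 in 91.2 kb, Nr3c2 held 10 and the co-chaperone gene Fkbp5 held 7. The clock genes Per2 and Per1 held 5 and 3, the deubiquitinase gene Usp2 held 5 in 26.6 kb, and Tsc22d3 held none in 59.0 kb. The Tns1 region of largest median length (chr1:74068190-74069995) was covered over 1554 and 1565 bp with vehicle and 1577 and 1433 bp with dDAVP, which overlap. The Cnksr3 region of largest median covered length (chr10:7148436-7149704) was covered over 1146 and 1269 bp with vehicle and 1032 and 927 bp with dDAVP, where both dDAVP values were the lower. After quantile normalization 13.3% of all shared regions showed that order. The glucocorticoid receptor gene Nr3c1 held a single region (chr18:39488930-39491926), covered over 2983 and 2991 bp with vehicle and 2938 and 2955 bp with dDAVP, nearly its whole width in each library.

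Immediate-early genes, which respond to signals within minutes, are short, and 10 of 30 held a region. Rcan1, an inhibitor of calcineurin, held 11 in 72.2 kb, Per1 held 3 and the nuclear receptor genes Nr4a1 and Nr4a2 held 2 each. Of the 30 genes 96.7% had a shared region at a gene end. The zinc finger gene Egr2 was among those hosts, with a region (chr10:67536025-67538382) at 4 annotated internal starts that was covered over 1900 and 1915 bp with vehicle and 1857 and 2328 bp with dDAVP.

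Genes of junctions, polarity and epithelial factors held 183 regions in 29 of 48 genes, with a median ratio of 0.845. The polarity gene Pard3 held 33 in 547 kb, a ratio of 1.93 to the chromosome and 0.853 to the surroundings. The grainyhead factor gene Grhl2 held 15 and the E-cadherin gene Cdh1 held 7, while Ctnna1 (129 kb) and the splicing regulator gene Esrp1 (52.9 kb) held none. The Cdh1 region of largest median covered length (chr8:106619468-106620751) was covered over 1248 and 1270 bp with vehicle and 1227 and 1275 bp with dDAVP, so the 4 libraries lay within a narrow range. Genes of the actin cytoskeleton and matrix adhesion held 378 regions in 46 of 50 genes, with a median ratio of 1.51. Lpp and the ankyrin gene Ank3 held 34 each in 597 and 492 kb, with ratios to the chromosome of 1.04 and 1.35. Vav3, a guanine nucleotide exchange factor, held 19 in 343 kb (ratio 1.03). The integrin gene Itga3 had a ratio of 5.47 to its chromosome and 2.14 to its surroundings. The integrin gene Itga2 held none in 97.0 kb.

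Epithelial and nephric transcription factor and cofactor genes held 337 regions in 42 of 50 genes, with a median ratio of 1.69. Mecom held 36, the Wnt effector gene Tcf7l2 29, Runx1 27, Cux1 24 and Zmiz1 20. High ratios on at least 5 regions were seen for Smad7, the inhibitory Smad of TGF-beta signalling (5 regions, ratio 20.2), Smad3 (13 regions, 5.35), Tead4 (7 regions, 5.29) and Rreb1 (13 regions, 4.99). Against their surroundings these ratios were lower, at 7.29 for Smad7, 2.17 for Smad3, 3.39 for Tead4 and 2.94 for Rreb1. The corepressor gene Ncor1 held none in 138 kb. Growth factor and TGF-beta signalling genes held 266 regions in 36 of 48 genes, led by the Rac exchange factor gene Tiam1 (50), Rptor (28) and Prkce (27), while Mtor (103 kb) and Acvr1 (118 kb) held none.

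Long genes of nerve or muscle were nearly all hosts, 49 of 50, but the regions were sparse. They held 490 regions at 0.928 per 100 kb, and their median ratio was 0.242 against the chromosome and 0.445 against the surroundings. Ptprt was an exception with 54 regions in 1137 kb and a ratio of 1.50 against the chromosome, and 0.493 against the surroundings. Lsamp and Nrxn3 held 28 each in 2191 and 1610 kb, and Grm7 was the listed gene without a region. Of these 50 genes 38.0% had a shared region at a gene end, against 64.2% of all genes.

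Position along the gene could be followed in the 1804 genes with a known strand and at least 100 kb of interior. Their 12605 regions were spread almost evenly, with 9.35% to 11.3% in each of 10 equal parts of the gene, and the part at the 3′ end held the most. Among these long genes the rate was 33.3 per Mb at 5 to 10 kb from the start, 33.1 at 50 to 100 kb and 18.5 beyond 200 kb, which only the longest genes reach.

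Annotated starts inside genes were frequently accessible. Of 3882 protein-coding starts that RefSeq places inside gene bodies and off gene ends, 1416 (36.5%) lay in a shared region of the kind described here, 465 in a region of 1 to 3 libraries and 1633 (42.1%) in no peak, and the rest lay in shared regions that were wide or reached a gene end. For long non-coding RNA starts inside genes the share was 13.7% (382 of 2791), and for microRNA hairpins 7.68% (43 of 560), against 2.67% of the interior bp. At gene ends 61.1% of coding starts lay in a shared region. By chromosome the share of internal coding starts ran from 17.9% on X to 52.6% on chromosome 19, and no internal start on chromosomes 18 or Y was analysed here. Starts of the same gene often share a region, and the 1416 starts lay in 1210 regions. Regions with an internal coding start made up a small part of all, and 30807 of the 32257 regions held no annotated coding or long non-coding start. That count includes regions whose genes the start table does not hold, since 6194 of the regions (19.2%) lay only in genes absent from it.

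**Figure D4:**
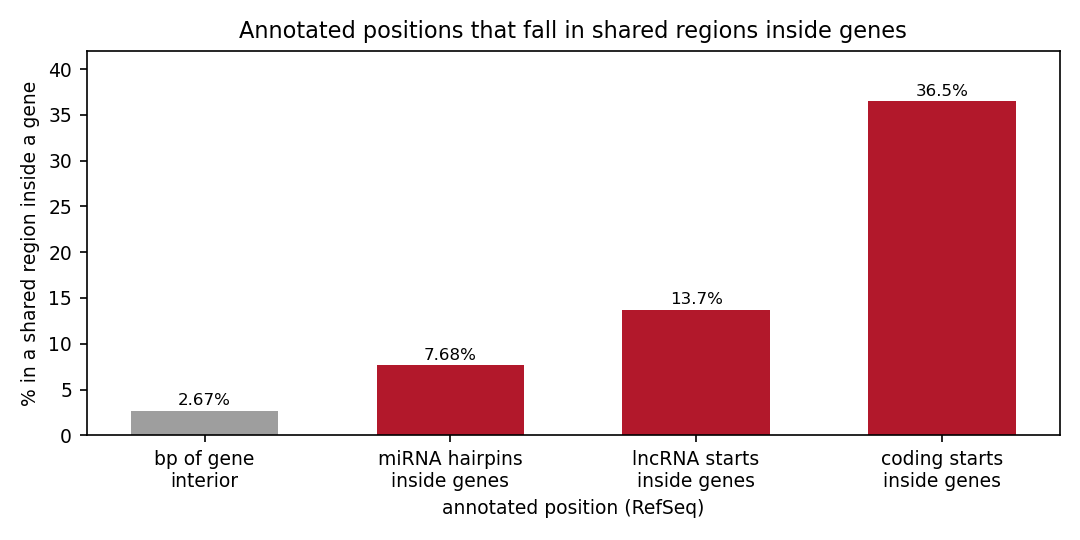
Bars give the percentage of RefSeq positions inside genes that fall in a shared region, for microRNA hairpins, long non-coding RNA starts and protein-coding starts, beside the percentage of interior bp covered (grey). Coding starts reach 36.5% and the covered interior is 2.67%.

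In all 1142 genes had an internal coding start in a shared region, of 2930 genes with any internal start. Of these 1142 genes, 525 (46.0%) had no shared region at either gene end, against 40.5% of the 2930 genes and 30.5% of all genes with interior. Among listed genes 21 were of this kind, including Prkar1a, Tjp1, the integrin genes Itgav and Itgb6, Lamb3, the catenin gene Ctnnd1, the paracingulin gene Cgnl1, Egr2, Akap7 and the phosphodiesterase gene Pde4b. The Prkar1a region (chr11:109650081-109651901), whose upstream window is printed above, was covered over 1791 and 1718 bp with vehicle and 1652 and 1731 bp with dDAVP. That of Tjp1 (chr7:65370379-65371613) was covered over 1182 and 1205 bp with vehicle and 1220 and 1220 bp with dDAVP, and its centre lay 156.9 kb from the outermost annotated start. That of Itgav (chr2:83723957-83725400) was covered over 1233 and 1229 bp with vehicle and 1225 and 1442 bp with dDAVP. The treatments overlapped in Prkar1a and Itgav, and in Tjp1 both dDAVP values were slightly the wider. After quantile normalization 16.7% of all shared regions had both dDAVP values the wider.

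Of the cAMP genes with an internal start, 9 of 16 had it in a shared region, namely Adcy9, Akap7, Gnas, Pde4a, Pde4b, Pde7b, Prkacb, Prkar1a and Prkar1b. The Gnas region at the window printed above (chr2:174328984-174331163) was covered over 2173 and 2073 bp with vehicle and 2169 and 2157 bp with dDAVP, close to its full width of 2180 bp. Of the principal cell genes 5 of 9 had such a start, namely Gata2, Gata3, Nr3c2, Pax2 and Sgk1. The widest was in Pax2 (chr19:44754785-44757722), covered over 2582 and 2749 bp with vehicle and 2935 and 2748 bp with dDAVP. In Sgk1 the region (chr10:21993948-21994935), 112.3 kb from the outermost start, was covered over 972 and 951 bp with vehicle and 980 and 988 bp with dDAVP, and 5 other Sgk1 regions held no annotated start. The Nr3c2 region (chr8:76901576-76902643) was covered over 1050 and 964 bp with vehicle and 1053 and 993 bp with dDAVP, again almost its full width.

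Base composition differed between internal starts in these regions and those in no peak. In windows of 250 bases before to 50 after the start, median GC was 61.0% for internal starts in these regions, 55.0% for those in regions of 1 to 3 libraries and 48.0% for those in no region, and it was 62.0% for starts in shared regions at gene ends. The ratio of observed to expected CpG pairs followed, at 0.690, 0.313, 0.245 and 0.783. The GC box letters were found in 59.7% of windows in these regions and 14.6% in no region, against 46.2% of all 21263 coding promoters, and the ETS letters in 11.9%, 1.47% and 11.6%. TATA letters went the other way, at 6.07%, 16.8% and 12.6%. The cAMP response element palindrome was found in 2.19%, 0.735% and 2.23%, the E-box in 8.55%, 3.98% and 7.84%, AP-1 letters in 6.57%, 9.06% and 6.99% and CCAAT in 33.6%, 36.7% and 38.2%. GC box and CpG content overlap by their letters, and the windows of starts that lie close together share bases.

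Hairpins of 43 microRNAs lay in 41 of the regions, and 42 had a mature sequence in RefSeq, with 68 distinct seeds among 71 mature sequences. Hairpins were placed by their centres. Those shown were chosen after their values were seen, for a known family, a shared region or a leading host gene, and the seed, bases 2 to 8, is in capitals.
miR-34b-5p: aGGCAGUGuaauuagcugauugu
miR-34b-3p: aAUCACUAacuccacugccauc
miR-136-5p: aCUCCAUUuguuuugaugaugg
miR-3071-5p: aCUCAUUUgagacgaugaugga
miR-330-3p: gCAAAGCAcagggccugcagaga
miR-3067-5p: aGUUCUCAggcccgcuguggugu

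The hairpin of miR-34b, a p53-induced microRNA, lay in a region within Hoatz and Btg4 (chr9:51103362-51104379) that was covered over 1008 and 942 bp with vehicle and 884 and 653 bp with dDAVP. The hairpins of miR-136 and of miR-3071 on the opposite strand overlap, and their region in the imprinted gene Rtl1 (chr12:109594628-109595975) was covered over 1210 and 775 bp with vehicle and 621 and 623 bp with dDAVP. The region of miR-330 in Eml2 (chr7:19180960-19181550) was covered over 591 and 457 bp with vehicle and 408 and 358 bp with dDAVP. In these 3 regions both dDAVP values in bp were below both vehicle values. After quantile normalization over all shared regions, that order was shown by 4683 of the regions inside genes (14.5%). Of all shared regions 13.3% showed it. The region of miR-3067 in Smoc1 (chr12:81165535-81167832) was covered over 1603 and 2281 bp with vehicle and 1710 and 1038 bp with dDAVP, where the treatments overlapped.

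Covered length set the regions apart from gene ends and hardly from the rest of the genome. Median covered length was 487 bp in vehicle replicate 1, 382 bp in vehicle replicate 2, 421 bp in dDAVP replicate 1 and 380 bp in dDAVP replicate 2. Shared regions at gene ends had medians of 954, 890, 932 and 899 bp in the same order, and those outside genes 466, 375, 415 and 371 bp. On the log2 scale the regions inside genes were narrower than gene ends by -1.14 ± 0.12 (SD, n = 4 libraries) and wider than regions outside genes by 0.04 ± 0.02. Each difference had the same sign in 4 of 4 libraries, and the two-sided exact sign-flip permutation test gave p = 0.13, the smallest that 4 libraries allow, so neither could pass 0.05.

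Regions at an internal coding start were about as wide as gene ends. Their medians were 978 and 914 bp with vehicle and 959 and 916 bp with dDAVP, and those at a long non-coding start 709 and 599 bp with vehicle and 686 and 564 bp with dDAVP. Regions at neither had 472 and 371 bp with vehicle and 408 and 367 bp with dDAVP. The log2 difference from regions at no start was 1.23 ± 0.12 (SD, n = 4 libraries) for coding starts and 0.66 ± 0.07 for long non-coding starts, again in 4 of 4 libraries with an exact sign-flip p of 0.13. Vehicle replicate 1, the library with the longest peak list, had the widest coverage in 36.0% of the regions, and the other libraries in 19.5% to 24.1%.

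**Figure D5:**
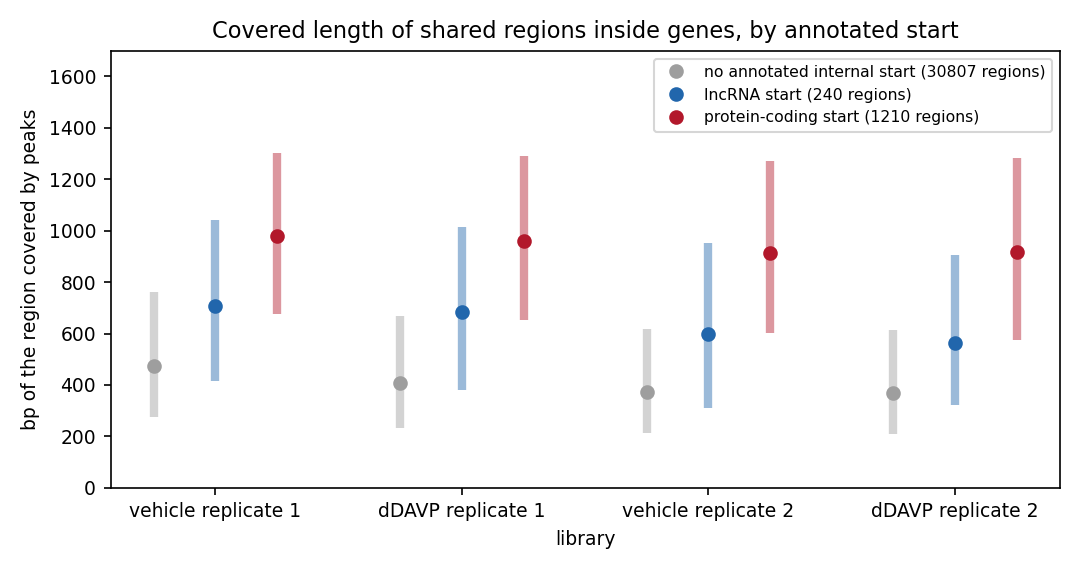
Points give the median and bars the quartiles of the bp covered by peaks in each library, for regions at an internal protein-coding start, at a long non-coding RNA start and at neither. In each of the 4 libraries the medians fall from 914 to 978 bp at coding starts to 367 to 472 bp at regions without an annotated start.

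Treatment was compared by width, since presence in every library had chosen the regions. The regions covered 16.2 ± 0.902 Mb per library with dDAVP and 17.3 ± 2.31 Mb with vehicle (SD, n = 2 each), a ratio of 0.936 with p = 0.667 in a two-sided exact permutation test whose smallest possible p is 0.33. They took up 14.5 ± 3.39% of a library's own peaks with dDAVP and 12.8 ± 5.60% with vehicle (SD, n = 2 each, exact permutation p = 0.667). For covered length the difference was -1.10 Mb, smaller in size than the vehicle SD but larger than the dDAVP SD. For the share of own peaks the difference of 1.62 was below both SDs. Without vehicle replicate 1 the ratio of covered length was 1.03.

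Region by region, limma on log2 covered length with Benjamini-Hochberg adjustment called 0 of all 88231 shared regions (0%) and 0 of the 32257 inside genes. At an unadjusted p under 0.05 it counted 1634 of the regions inside genes (5.07%), against 4.53% of all shared regions. On the quantile normalized values, both dDAVP libraries exceeded both vehicle libraries in 5253 regions (16.3%), against 16.7% of all shared regions. They lay below them in 4683 (14.5%), against 13.3%. These shares are near the background. Without dDAVP replicate 1, 13 regions inside genes (0.0403%) were called, against 35 of all shared regions (0.0397%), all narrower with dDAVP, in a fit that assumes the lone dDAVP library varies like the vehicle libraries. None inside genes was called without vehicle replicate 1, vehicle replicate 2 or dDAVP replicate 2.

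The regions with the smallest p are given by their values, chosen after these were seen, and each had an adjusted p of 1 in limma. A second Gnas region (chr2:174298987-174301176) was covered over 1575 and 1893 bp with vehicle and 597 and 425 bp with dDAVP, a log2 difference of -1.70 with a standard error of 0.26. The region in Acsbg3, an acyl-CoA synthetase gene (chr17:56882665-56884335), was covered over 1671 and 1220 bp with vehicle and 282 and 287 bp with dDAVP. Those in the pyruvate carboxylase gene Pcx and in Bag6 were also narrower in both dDAVP libraries, with log2 differences of -1.14 and -1.59. In the other direction, the region in Pik3c2g, a phosphatidylinositol 3-kinase gene (chr6:139818606-139820401), was covered over 678 and 530 bp with vehicle and 1475 and 1530 bp with dDAVP. The region in the leukocyte transcription factor gene Spi1 (chr2:91096304-91098352) was covered over 668 and 342 bp with vehicle and 1701 and 1512 bp with dDAVP. The treatments do not overlap in any of these regions, which follows from picking them by the smallest p and is not a result. After quantile normalization 16.7% of all shared regions had both dDAVP values higher and 13.3% both lower. With 88231 regions tested no adjusted p passed 0.05.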

How the data were processed

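Chromatin accessibility was measured in 4 ATAC-seq libraries. The authors deposited 1 peak list per library with chromosome, start and end (other than these positions the lists hold no value), made, per the submitters' processing notes, on mm10 with MACS2, bedtools, Picard, SAMtools, Bowtie2 and cutadapt. Versions, the peak threshold and any read shift are not given there. A longer list gives more chances for a peak to be called, and depth is unknown. Peaks were merged in Python 3.11.15, and gene bodies, promoter windows and microRNAs came from RefSeq tables on GRCm38.p6. All 447 entries of 12 gene lists matched, 1 of them by an older name. Strand was known for 17492 genes. Covered length was tested with limma 3.58.1 (R 4.3.3) on log2 values, quantile normalized over all shared regions, at an adjusted p of 0.05. The interval steps and the limma fit were tested on simulated data.

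The members and lists were chosen with earlier results of these data known. Named genes are the 10 with the most regions, the 8 with the highest density and the 8 with the highest ratio to the chromosome among genes with at least 50 kb of interior, the 8 longest without a region, up to 3 leading genes of each list and up to 2 of at least 50 kb without a region; some of these are not reported here. The comparison with surroundings and other named genes were added after values were seen. Alternatives changed the width limit, the gene-end window, the presence rule, merging, the peaks used, the libraries and the fit.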

Additional observations from a re-analysis of the deposited data

How the results depend on the processing

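The number of shared regions inside genes was 59884 with a peak in at least 3 libraries and 14546 with only peaks at least as wide as their library's median, against 32257. The number of genes with 20 or more regions was 163 and became 583 and 19 under the same settings, and 186 to 321 without each library in turn, with 318 without vehicle replicate 2 and 321 without dDAVP replicate 2. The rate was 60.6 and 14.7 per Mb of interior under these 2 settings, against 32.6. The share of shared regions that lay inside genes (36.7%) was 37.9% with gene-end windows of 0.5 kb, 33.8% with 2.5 kb, 39.4% with 3 libraries, 32.4% with wide peaks and 37.0% to 38.1% without each library. The share of internal coding starts in the regions (36.5%) was 33.7% with a width limit of 2000 bp, 33.9% with windows of 0.5 kb, 40.1% with 3 libraries, 32.6% with wide peaks and 36.0% to 38.2% without each library. The ratio of the inside to the outside rate stayed between 1.27 and 1.31 in the 11 settings run. The ratio of covered length between treatments (0.936) was 0.856 to 1.03 without each library, and the share of own peaks gave 1.13, the opposite direction. The cause of these changes was not tested, apart from the numbers of libraries and peaks that the settings themselves set. Of the 10 genes with the most regions 8 to 10 stayed among the leading 10 in the 11 settings. The region counts of 82 named genes moved past 1.5 times in 46 genes with 3 libraries, in 50 with wide peaks and in 1 to 13 without each library. Their ratios to the expected number moved past 1.5 times in 45 genes with the rate of all chromosomes and in 35 with the rate of the surroundings. Calls of covered length inside genes were 0 to 13 without each library. The replicate block also gave 0 calls. The deviations of same-numbered libraries correlated at 0.0969, the labels do not say that a number marks a shared culture or day, and with 2 pairs the numbers were taken as numbers only. Unknown depth limits every absence, because chromatin without a called peak need not be closed.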
